A study of Mus musculus with 6 samples.

Results

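The DNA replication genes described here are a list of 44 genes, chosen by symbol, that encode the machinery copying the genome in S phase and some genes that supply or switch on that machinery. Every probe set that the platform annotation pairs with exactly 1 gene symbol on the list was taken, which gave 99 of the 45037 probe sets on the array and covered 44 of 18193 named genes. The samples were 6 arrays, each of total RNA from the number 4 and number 9 mammary fat pads of a single female on the C57BL/6J background, 3 wild type (WT) and 3 Pxmp2-/-. Both groups had their ovaries removed at 21 days of age and an injection of estradiol at 31 days, and the pads were collected 8 h later. The gene lost, Pxmp2, encodes a channel in the membrane of peroxisomes, and the labels give the mutant by genotype only, without naming how the allele was made. The question put to these samples was how loss of Pxmp2 changes gene expression in the pad at the estradiol-induced start of puberty, and no pad without estradiol was among the samples.

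Replication begins at origins, where the origin recognition complex, Cdc6 and Cdt1 load the ring-shaped MCM helicase in G1. Cdc45 and the GINS complex activate the helicase, primase and polymerases copy both strands, and the clamp PCNA keeps polymerases on the template. Much of this machinery is transcribed under E2F factors as cells enter S phase, so its transcripts are commonly read as a sign of dividing cells. In the mammary gland of puberty, estradiol is known to drive division of the duct epithelium, much of it through signals from the surrounding stroma.

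The arrays were alike in median brightness, with medians between 98.5 and 105 arbitrary units of intensity. Their upper quartiles were 456, 455 and 469 in WT and 448, 442 and 429 in Pxmp2-/- mice. Every mutant array was thus below every control array in its upper quartile. Pxmp2 itself read 2643, 2465 and 2797 in the WT mice and 308, 262 and 260 in the Pxmp2-/- mice, so the labels and the targeted transcript went together in all 6 mice. White adipocyte markers were above the level filter for 7 of 7 genes on the array, as the label of the tissue implies. Of 12 mammary epithelial markers 4 were above it, and Epcam, Krt5, Krt8, Krt14 and Krt18 were not. In a whole pad, fewer cells of a type and less RNA per cell cannot be told apart. B and T lymphocyte markers were present too, with 6 of 9 and 6 of 8 genes above the filter. Fat pad 4 normally holds a lymph node, and the labels do not say whether the node was removed.

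Most of the replication genes were measurable in the fat pad. The level filter asked for a mean log2(intensity + 16) above the 40th percentile of all probe sets, which corresponds to an intensity of 59.1. It left 76 of the 99 probe sets and 43 of the 44 genes. The gene left out was Tyms, for thymidylate synthase, which makes the thymidine nucleotide of DNA. All of its probe sets were dim, and its brightest read 60.6, 64.5 and 47.6 in WT and 65.1, 58.8 and 59.6 in Pxmp2-/- mice. Below, a gene is represented by its brightest probe set, differences are Pxmp2-/- minus WT on the log2(intensity + 16) scale, which understates changes of dim transcripts, and errors are moderated standard errors (SE) of limma. Adjusted p-values are those of limma with Benjamini-Hochberg adjustment over the 27022 probe sets that passed the filter.

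No replication gene passed the threshold of 0.05. Among the 76 probe sets 0 were called by limma after adjustment, where 0.0629% of all tested probe sets were called, and among the 43 genes 0, where 0.0391% of all tested genes were. At an unadjusted p under 0.05 there were 9 of 76 probe sets, or 11.8%, against 16.6% of all tested probe sets. Of these 5 were higher in Pxmp2-/- mice and 4 lower, or 6.58% and 5.26%, against 6.12% and 10.5% of all tested probe sets. By the sign alone 41 of 76 probe sets (53.9%) were lower in Pxmp2-/- mice, against 57.3% of all. Probe sets whose groups did not overlap numbered 3 higher and 12 lower, or 3.95% and 15.8%, against 7.73% and 15.1% of all. Taking 1 probe set per gene, the median difference of the 43 genes was -0.036, and that of all 12775 tested genes was -0.034. The differences ran from -0.36 for Cdc6 to 0.45 for Rrm2, with 20 genes higher and 23 (53.5%) lower, against 58.3% of all tested genes lower. The direction of the small median depended on scaling, since after quantile normalization it was 0.036, with 0.0027 for all genes. Counting genes whose groups did not overlap gave 2 of 43 higher and 6 of 43 lower, or 4.65% and 14.0%, against a background of 7.5% and 15.1%. The genes called at an unadjusted p were 5 of 43 (11.6%), against 14.2% of all tested genes. Each of these shares was near that of all genes or below it. For 28 of the 43 genes (65.1%) the difference between genotypes was smaller than the SD among mice of one genotype, which was so for 51.7% of all tested genes.

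**Figure D1:**
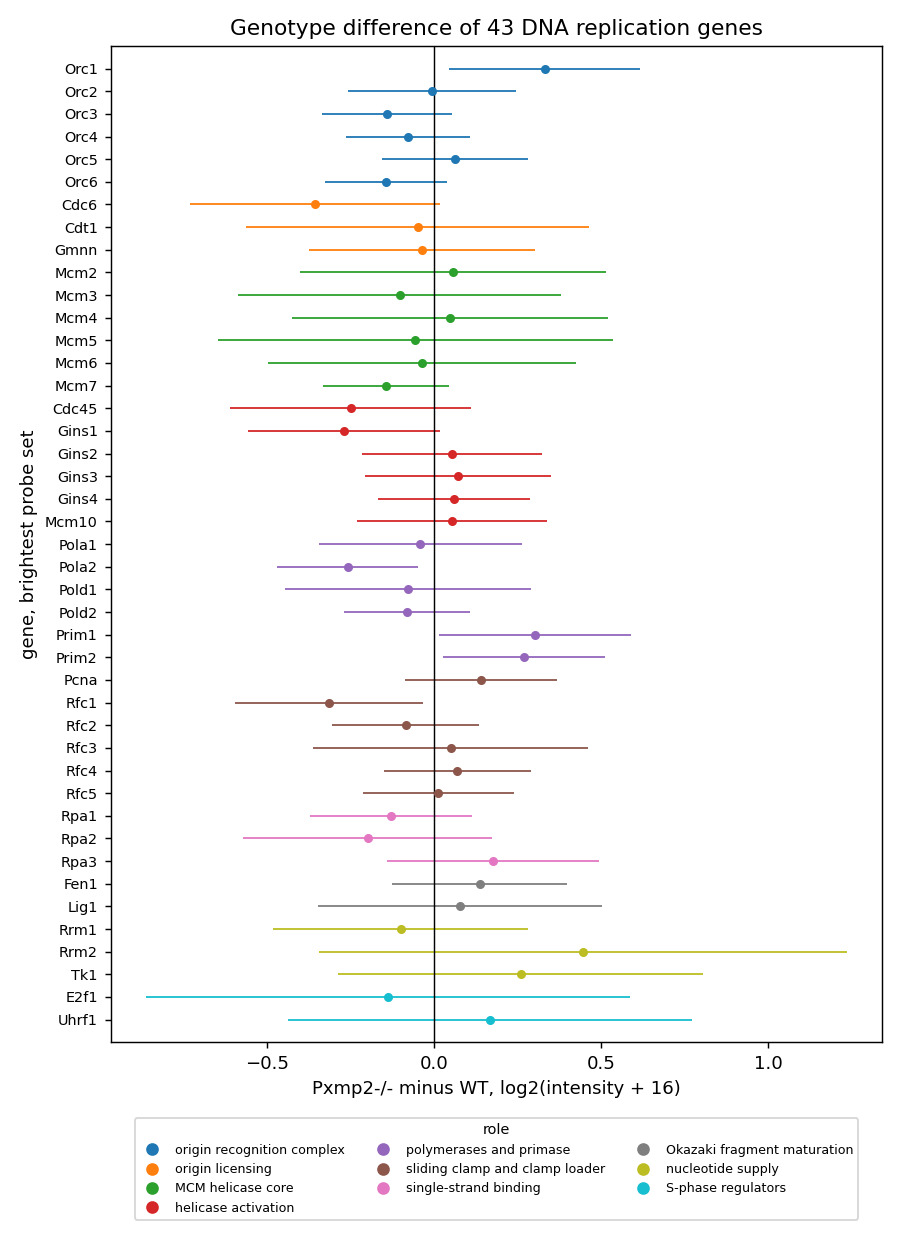
Difference between genotypes for each of the 43 tested DNA replication genes, on the horizontal axis as Pxmp2-/- minus WT in log2(intensity + 16), with genes on the vertical axis coloured by role. Points are limma estimates and bars their 95% confidence intervals (n = 3 mice per genotype). The intervals of 38 genes hold 0, and the 5 that do not are those of Orc1, Prim1, Prim2, Pola2 and Rfc1, none of which passed after adjustment.

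The origin recognition complex is the platform on which origins are licensed, and none of its 6 subunits passed. Orc1, the subunit known to cycle most with cell division, read 157, 111 and 130 in WT and 179, 170 and 160 in Pxmp2-/- mice. All 3 mutants lay above all 3 controls, with a difference of 0.33 ± 0.12 (SE, n = 3 per group) and an adjusted p of 0.258 in limma. Its second probe set was dimmer and differed by 0.09, also with separate groups. Orc6 read 837, 787 and 811 in WT and 740, 736 and 723 in Pxmp2-/- mice, without overlap and with little spread. The difference was -0.14 ± 0.08 (SE) and the limma adjusted p 0.385. Orc3 read 1392, 1246 and 1347 in WT and 1206, 1218 and 1181 in Pxmp2-/- mice, a difference of -0.14 ± 0.08 (SE) with a limma adjusted p of 0.417. The groups of Orc3 were separate too. Its dimmer probe sets differed by -0.25, with separate groups, and by 0.03, with overlapping groups. After quantile normalization Orc6 and Orc3 differed by -0.08 each. The groups of Orc4 were separate by a hair in its brightest probe set, at a difference of -0.08. There the lowest control read 801.27 and the highest mutant 801.03. Orc2 differed by -0.0054 and Orc5 by 0.06, with overlapping groups. The dimmer tested probe sets of Orc2 differed by -0.08, with separate groups, and by 0.15, with overlapping groups. A further probe set of Orc4 had the smallest p of all replication probe sets and is named for that after its values were seen. It read 791, 754 and 744 in WT and 649, 498 and 515 in Pxmp2-/- mice, a difference of -0.46 ± 0.12 (SE) with a limma adjusted p of 0.184. The other tested probe sets of Orc4 differed by -0.19 and -0.08. All 3 were thus lower with separate groups, but by unequal amounts.

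Licensing factors load the helicase, and geminin (Gmnn) blocks reloading by binding Cdt1. Cdc6, the loading ATPase, read 105, 117 and 75.02 in WT and 83.3, 60.9 and 74.94 in Pxmp2-/- mice. WT 1 and WT 2 stood above all mutants and WT 3 among them, and the difference was -0.36 ± 0.16 (SE, n = 3 per group) with a limma adjusted p of 0.315. Cdt1 read 223, 297 and 267 in WT and 369, 208 and 205 in Pxmp2-/- mice. Its means were nearly equal, 262 ± 37.1 and 261 ± 93.5 (SD, n = 3 each), because Pxmp2-/- 1 was the highest of all mice and the remaining mutants were the lowest. Gmnn read 727, 764 and 720 in WT and 882, 581 and 723 in Pxmp2-/- mice, with the same mutant on top. Its difference was -0.04 with a 95% interval from -0.37 to 0.30.

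Of the MCM subunits, which form the hexameric helicase, all but Mcm7 varied widely between mice of one genotype. Mcm2 read 75.5, 138 and 82.8 in WT and 115, 92.5 and 94.6 in Pxmp2-/- mice. Mcm3 read 231, 328 and 238 in WT and 329, 188.5 and 232 in Pxmp2-/- mice. In both genes WT mouse 2 was the highest control and Pxmp2-/- mouse 1 the highest mutant. Mcm5 read 203, 374 and 280 in WT and 358, 197 and 267 in Pxmp2-/- mice. Mcm6 read 350, 595 and 435 in WT and 528, 389 and 409 in Pxmp2-/- mice. The same 2 mice stood out again, and the lowest mouse of each group was WT 1 and Pxmp2-/- 2 for both genes. Mcm4 read 363, 411 and 464 in WT and 585, 323 and 405 in Pxmp2-/- mice, so that the order differed among the controls but not among the mutants. The differences between genotypes for Mcm2 to Mcm6 lay between -0.10 and 0.06, with SEs of 0.20 to 0.25 and limma adjusted p-values of 0.83 to 0.943. Their 95% intervals reached from -0.65 at the lowest to 0.54 at the highest. With 3 mice per genotype, the interval of each gene leaves room for a difference in either direction.

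Mcm7 varied little between mice of a genotype in its brightest probe set. It read 1217, 1260 and 1284 in WT and 1166, 1158 and 1079 in Pxmp2-/- mice, with an SD of 34.1 and 48.0 (n = 3 each). The groups did not overlap, at a difference of -0.14 ± 0.08 (SE) and a limma adjusted p of 0.401. After quantile normalization the difference of Mcm7 was -0.08. Its 4 tested probe sets differed by -0.23, -0.14, -0.09 and 0.03. Mcm7 lies on chromosome 5, as does Pxmp2, together with Orc5, Rfc1, Rfc2, Rfc3, Rfc5 and Tyms from the list. Among these Rfc1 was lower at an unadjusted p under 0.05, as given below, Mcm7, Orc5, Rfc2, Rfc3 and Rfc5 were not, and Tyms was not tested.

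**Figure D2:**
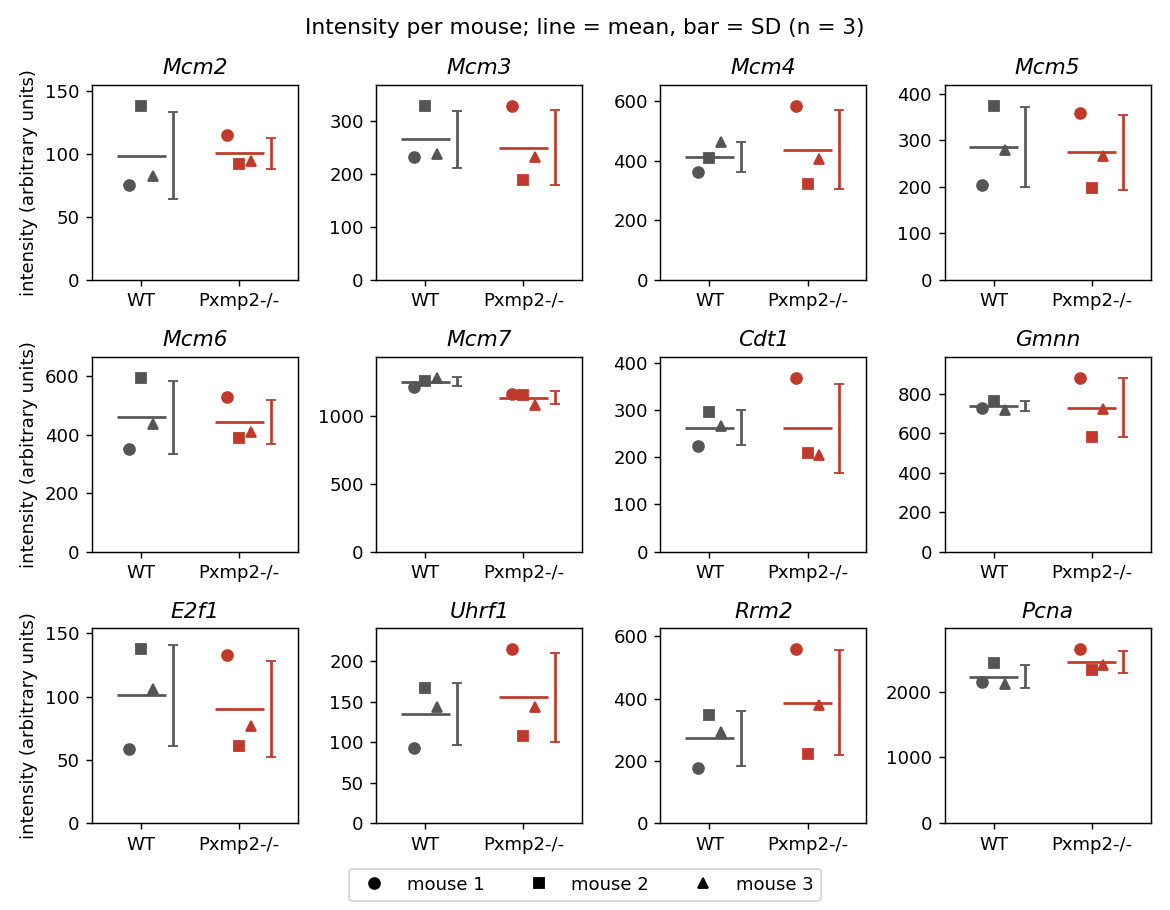
Intensity in arbitrary units (vertical axis, from 0) of 12 DNA replication genes in each of the 3 WT and 3 Pxmp2-/- mice, with mouse 1 as a circle, mouse 2 as a square and mouse 3 as a triangle. Horizontal lines are means and bars SDs (n = 3). In most panels WT mouse 2 and Pxmp2-/- mouse 1 stand highest in their groups while the group means lie close together, and Mcm7 shows narrow groups without overlap.

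Promoter sequences of these genes are shown because E2F factors bind there and because several of the genes varied together between mice. The RefSeq table of GRCm38.p6 holds windows from 250 bases before to 50 bases after the start site, and 37 of the 44 genes had at least 1. They were searched on both strands for 4 forms of the E2F word, TTTCCCGC, TTTGGCGC, TTTCGCGC and TTTGCCGC, which can overlap one another on opposite strands. At least 1 form was present for 14 of the 37 genes (37.8%), against 4.55% of 10290 tested genes with a window and 2.26% of all 32851 windows. The 14 were Cdc6, Cdt1, Gins3, Lig1, Mcm3, Mcm5, Mcm6, Mcm7, Orc1, Orc3, Pola1, Pold1, Rfc3 and Uhrf1. The CCAAT word, the site of the factor NF-Y, was present for 24 of 37 (64.9%), against 42.5% of tested genes. Matches are letters in a window and no evidence that a factor was bound in these pads. The windows below run from 5′ to 3′ in the direction of transcription, with E2F words on either strand in capitals.
Mcm3: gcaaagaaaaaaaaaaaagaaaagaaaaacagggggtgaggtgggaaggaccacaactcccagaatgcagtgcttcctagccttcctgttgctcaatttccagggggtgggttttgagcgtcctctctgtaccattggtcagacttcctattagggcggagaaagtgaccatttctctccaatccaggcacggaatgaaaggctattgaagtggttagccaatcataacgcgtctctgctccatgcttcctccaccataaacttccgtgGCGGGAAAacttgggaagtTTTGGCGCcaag
Mcm5: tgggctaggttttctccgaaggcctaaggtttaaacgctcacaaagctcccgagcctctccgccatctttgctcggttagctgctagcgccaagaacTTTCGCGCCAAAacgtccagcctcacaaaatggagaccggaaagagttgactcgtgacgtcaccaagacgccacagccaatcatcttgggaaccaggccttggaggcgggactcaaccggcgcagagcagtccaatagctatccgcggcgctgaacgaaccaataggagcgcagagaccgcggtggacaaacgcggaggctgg
Mcm6: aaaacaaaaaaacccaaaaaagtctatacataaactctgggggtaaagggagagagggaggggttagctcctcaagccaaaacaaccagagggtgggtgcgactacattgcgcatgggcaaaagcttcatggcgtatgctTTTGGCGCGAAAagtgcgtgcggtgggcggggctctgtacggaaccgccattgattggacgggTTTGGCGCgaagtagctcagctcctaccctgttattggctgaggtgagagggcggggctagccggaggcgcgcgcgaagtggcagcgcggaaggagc
Mcm7: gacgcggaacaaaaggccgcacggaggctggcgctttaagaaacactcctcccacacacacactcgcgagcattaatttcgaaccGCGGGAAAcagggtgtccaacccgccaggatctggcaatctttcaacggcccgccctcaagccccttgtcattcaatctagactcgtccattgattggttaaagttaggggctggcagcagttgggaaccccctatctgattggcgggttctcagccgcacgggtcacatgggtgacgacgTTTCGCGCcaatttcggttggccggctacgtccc
Cdt1: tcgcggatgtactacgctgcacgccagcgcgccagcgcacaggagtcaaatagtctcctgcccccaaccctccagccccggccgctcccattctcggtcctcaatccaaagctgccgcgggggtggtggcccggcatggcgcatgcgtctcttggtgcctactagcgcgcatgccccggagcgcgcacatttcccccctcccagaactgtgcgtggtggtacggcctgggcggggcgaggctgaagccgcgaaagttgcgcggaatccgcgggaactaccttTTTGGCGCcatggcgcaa
Uhrf1: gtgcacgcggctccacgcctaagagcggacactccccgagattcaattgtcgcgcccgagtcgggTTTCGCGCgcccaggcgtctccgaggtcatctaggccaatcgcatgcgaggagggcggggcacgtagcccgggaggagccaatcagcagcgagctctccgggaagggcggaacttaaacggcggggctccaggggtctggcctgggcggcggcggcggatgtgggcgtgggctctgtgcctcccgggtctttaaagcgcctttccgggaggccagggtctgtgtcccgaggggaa
The window of Mcm3 is chr1:20820263-20820562 (minus strand), that of Mcm5 chr8:75109259-75109558 (plus strand) and that of Mcm6 chr1:128359656-128359955 (minus strand). That of Mcm7 is chr5:138171834-138172133 (minus strand), that of Cdt1 chr8:122567765-122568064 (plus strand) and that of Uhrf1 chr17:56304063-56304362 (plus strand). Mcm5 and Mcm6 each hold TTTCGCGC and TTTGGCGC overlapping on opposite strands, and Mcm6 holds a second TTTGGCGC nearer to the start site. Mcm3 holds its words downstream of the start, as does Cdt1. Mcm7, whose brightest probe set hardly varied between mice of a genotype, has 2 words as well. Over the tested genes with a window, the within-group SD had a median of 0.26 log2 for the 14 with an E2F word. It was 0.15 for the 22 without, given here as a description. These sets were not matched by level, and dim probe sets spread more on a log scale. The largest spreads, of Rrm2 at 0.56 and E2f1 at 0.51, were among the genes without a word. The search covered only the 4 exact words in these windows, so a gene without a match may hold other sites. Whether E2F factors had a part in the spread between mice was not tested.

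Among the factors that activate the helicase, 2 had lower means in Pxmp2-/- mice without separate groups. Gins1 read 264, 286 and 274 in WT and 272, 213 and 197 in Pxmp2-/- mice, with a difference of -0.27 ± 0.12 (SE, n = 3 per group) and a limma adjusted p of 0.32. Cdc45, which rides with the helicase, read 220, 252 and 297 in WT and 259, 202 and 180 in Pxmp2-/- mice. Its difference was -0.25 ± 0.15 (SE) and the limma adjusted p 0.442, with -0.08 for its dimmer probe set. In both genes Pxmp2-/- mouse 1 lay inside the range of the controls and the other mutants below it. Gins2, Gins3 and Gins4, further subunits of the GINS complex, and Mcm10, which helps the helicase start, differed by 0.05 to 0.07.

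Primase and polymerase alpha lay down the first stretch of each new strand, and none of their subunits passed. Pola2, the regulatory subunit of polymerase alpha, read 461, 476 and 492 in WT and 420, 408 and 362 in Pxmp2-/- mice. All mutants were below all controls, at a difference of -0.26 ± 0.09 (SE, n = 3 per group) and a limma adjusted p of 0.248, and its second probe set differed by -0.20. Prim1, the catalytic primase subunit, read 225, 314 and 251 in WT and 326, 332 and 319 in Pxmp2-/- mice. The mutants were all above the controls by a narrow margin, at 0.30 ± 0.12 (SE) with a limma adjusted p of 0.283, while the dimmer probe set of Prim1 differed by -0.12. Prim2, its partner, read 258, 226 and 230 in WT and 308, 257 and 306 in Pxmp2-/- mice, a difference of 0.27 ± 0.10 (SE) with a limma adjusted p of 0.268. One mutant of Prim2 read almost the same as the highest control. Pola1, the catalytic subunit of polymerase alpha, differed by -0.04. Pold1 and Pold2 of polymerase delta both differed by -0.08, the groups of Pold2 being separate.

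PCNA, the sliding clamp, is widely used as a marker of S phase. It read 2146, 2431 and 2110 in WT and 2646, 2324 and 2405 in Pxmp2-/- mice, with means of 2229 ± 175 and 2459 ± 167 (SD, n = 3 each). The highest mouse was again Pxmp2-/- 1, and the difference was 0.14 ± 0.10 (SE) with a limma adjusted p of 0.484. Rfc1, the large subunit of the clamp loader, read 837, 773 and 854 in WT and 780, 617 and 589 in Pxmp2-/- mice. Its difference was -0.31 ± 0.12 (SE) with a limma adjusted p of 0.265, and its other probe sets differed by 0.12 and -0.16. One mutant of Rfc1 lay within the controls, and the probe sets of the gene did not go one way. The smaller loader subunits Rfc2, Rfc3, Rfc4 and Rfc5 differed by -0.08 to 0.07. Rpa1, Rpa2 and Rpa3, the subunits of the protein that covers single strands, differed by -0.13, -0.20 and 0.18. Fen1, the nuclease that trims Okazaki fragments, differed by 0.14 and Lig1, the ligase that joins them, by 0.08.

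Rrm2, of nucleotide supply, had the widest spread between mice of all 43 genes. It encodes the limiting subunit of ribonucleotide reductase, and it read 176, 347 and 293 in WT and 559, 224 and 381 in Pxmp2-/- mice. Its group means were 272 ± 87.1 for WT and 388 ± 168 for Pxmp2-/- (SD, n = 3 each), a difference of 0.45 ± 0.34 (SE) with a limma adjusted p of 0.526. A second probe set of Rrm2 differed by 0.70 ± 0.27 (SE), with a limma adjusted p of 0.265. Both probe sets put Pxmp2-/- mouse 1 highest and WT mouse 1 lowest. Rrm1, the large subunit, differed by -0.10 in one probe set and by 0.33 in the other. The thymidine kinase gene Tk1 differed by 0.26 ± 0.23 (SE) with a limma adjusted p of 0.594, again with Pxmp2-/- mouse 1 highest and WT mouse 1 lowest. E2f1, a transcription factor of the G1 to S transition, read 58.9, 137 and 106 in WT and 133, 60.7 and 76.6 in Pxmp2-/- mice. WT 2 and Pxmp2-/- 1 stood side by side at the top, and the difference was -0.14 ± 0.31 (SE) with a limma adjusted p of 0.848. Uhrf1, which carries DNA methylation over to the new strand, read 93.4, 167 and 144 in WT and 215, 108 and 143 in Pxmp2-/- mice. Its difference of 0.17 ± 0.26 (SE) was smaller than its SD among mice of one genotype.

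Probe sets of one gene did not always go the same way. Of 24 genes with several tested probe sets, 13 had one sign of the difference in all and 11 had both signs, and 19 genes had a single tested probe set. Mcm3, Mcm5, Mcm7, Orc2, Orc3, Pold1, Prim1, Rfc1, Rfc4, Rpa2 and Rrm1 were those with both signs. The cause of these disagreements was not tested.

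The mouse-to-mouse pattern ran through much of the list. Relative to the mean of the 6 mice, the median level of the 43 genes was -0.067, 0.10 and 0.0090 log2 in WT mice 1 to 3 and 0.17, -0.095 and -0.092 in Pxmp2-/- mice 1 to 3. The means of the groups were 0.014 ± 0.084 for WT and -0.0057 ± 0.15 for Pxmp2-/- (SD, n = 3 each), so the groups differed by less than the spread between mice. Pxmp2-/- 1 was the highest of the mutants in 36 of 43 genes (83.7%), against 45.6% of all tested genes. WT 2 was the highest of the controls in 27 of 43 (62.8%), against 33.7% of all tested genes. In 22 genes (51.2%) both held, against 12.5% of all tested genes. Of the 6 mice together, Pxmp2-/- 1 was the highest in 19 genes (44.2%, against 17.5% of all tested genes) and WT 2 in 13 (30.2%, against 18.5%). For the MCM subunits the median deviations were -0.26, 0.38 and 0.0067 in WT and 0.30, -0.27 and -0.079 in Pxmp2-/- mice, a wider swing than that of the origin recognition complex, whose 6 values lay between -0.059 and 0.047. These orders were noticed in the data and are given as a description, with no test.

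**Figure D3:**
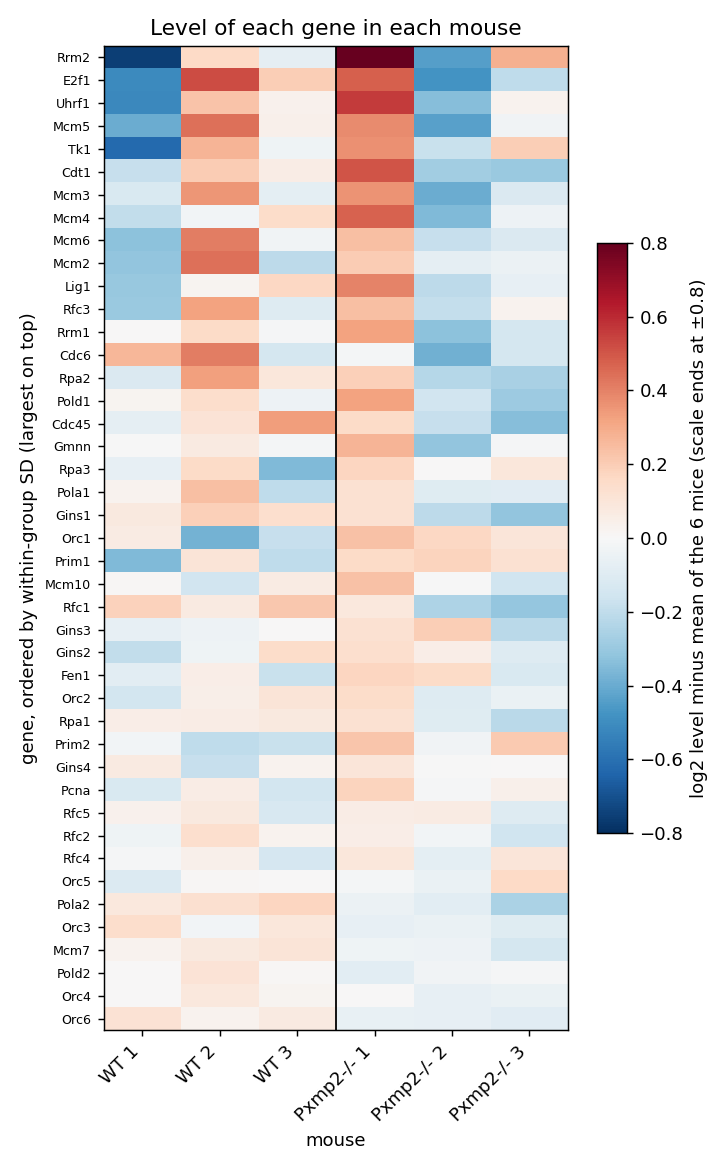
Level of each of the 43 DNA replication genes in each mouse, as colour for log2(intensity + 16) minus the mean of the 6 mice, with genes on the vertical axis ordered by their SD among mice of one genotype and mice on the horizontal axis. Red is above and blue below the mean, and colours end at 0.8 in either direction. In the upper rows WT 2 and Pxmp2-/- 1 are mostly red and WT 1 and Pxmp2-/- 2 mostly blue, and in the lowest rows all 3 WT mice are mostly faint red and the mutants faint blue.

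The spread of these genes among mice of one genotype was large for some roles and small for others. The SD within groups had a median of 0.16 log2 over the 43 genes and of 0.12 over all tested genes. It was 0.31 for the MCM subunits, 0.38 for nucleotide supply, 0.47 for the 2 S-phase regulators E2f1 and Uhrf1, and 0.076 for the origin recognition complex. The genes with the largest values were Rrm2 at 0.56, E2f1 at 0.51, Uhrf1 at 0.42, Mcm5 at 0.41, Tk1 at 0.38 and Cdt1 at 0.35. At the other end were Orc6 at 0.034, Orc4 at 0.041, Pold2 and Mcm7 at 0.051 and Orc3 at 0.059. Dim probe sets spread more on a log scale, so all tested genes were also split into 4 equal bins by level, and each replication gene was set against its own bin. There, 12 of 43 lay above the 90th percentile of their bin, and 26 above its median. The 12 were Rrm2, E2f1, Uhrf1, Mcm3, Mcm4, Mcm5, Mcm6, Tk1, Cdt1, Lig1, Rrm1 and Gmnn. Of the 6 genes with lower values in Pxmp2-/- mice and separate groups, Orc3, Orc4, Orc6, Mcm7, Pold2 and Pola2, all had a within-group SD under 0.09. Groups can be separate at small differences only where the spread is small, so this follows from how the 6 were picked.

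Other genes of the pathway were taken from a separate list of 40, and none of them passed either. Of the 40 genes 38 were on the array and 35 were tested. Limma called 0 after adjustment, against 0.0391% of all tested genes. At an unadjusted p under 0.05, 1 was higher and 3 lower, against 5.54% and 8.62% of all tested genes. Pole, the catalytic subunit of the leading-strand polymerase epsilon, read 79.1, 102 and 102 in WT and 48.1, 45.8 and 37.3 in Pxmp2-/- mice. All mutants were below all controls, at -0.88 ± 0.12 (SE, n = 3 per group) with a limma adjusted p of 0.0992. Pole lies on chromosome 5, as does Pxmp2, and its mutant values were below the filter's intensity of 59.1. Whether the altered locus itself had a part in this difference was not tested. Mcm9, a helicase relative that acts in repair, read 134, 134 and 142 in WT and 96.4, 96.2 and 91.4 in Pxmp2-/- mice, a difference of -0.46 ± 0.08 (SE) with a limma adjusted p of 0.121. Chaf1b, a histone chaperone subunit, differed by 0.30 (limma adjusted p = 0.286). Timeless, a fork protection factor, differed by -0.32 in one probe set and 0.41 in a dimmer one. The median over the 35 genes was 0.010, and it was below 0 when WT 1, WT 2, WT 3 or Pxmp2-/- 1 was left out, between -0.026 and -0.0061.

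The E2F family and its pocket protein partners, a further list, had small differences. Of 12 genes 11 were tested, and limma called 0 after adjustment and 0 at an unadjusted p under 0.05. The shares of all tested genes were 0.0391% and 14.2%. The repressor-type factor E2f4 read 542, 508 and 557 in WT and 622, 619 and 588 in Pxmp2-/- mice, a difference of 0.18 ± 0.08 (SE, n = 3 per group) with a limma adjusted p of 0.316. The groups of E2f4 did not overlap. E2f5 differed by 0.16, the retinoblastoma gene Rb1 by 0.08 and E2f3 by -0.10.

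Markers of G2 and M phase, which follow S phase in dividing cells, had a higher median than the replication genes. Of 15 listed genes 13 were tested, and limma called 0 after adjustment, against 0.0391% of all tested genes. At an unadjusted p under 0.05, 1 was higher and 0 lower, against 5.54% and 8.62% of all tested genes. The median difference was 0.23 with 12 of 13 above 0, where 58.3% of all tested genes were below 0. It was 0.28 after quantile normalization, and 0.11 with 10 of 13 above 0 without Pxmp2-/- 1. It was 0.45 without Pxmp2-/- 2 and 0.37 without WT 2, and without _x_at and _s_at probe sets it was 0.36. Cenpa, the histone of centromeres, differed by 0.42 ± 0.17 (SE, n = 3 per group; limma adjusted p = 0.279). Cdc20, an activator of anaphase, differed by 0.21, the cyclin gene Ccnb2 by 0.60 and Ccna2 by 0.23. The median level of these markers per mouse was -0.23, 0.090 and -0.15 in WT and 0.48, -0.31 and 0.18 in Pxmp2-/- mice, so WT 2 and Pxmp2-/- 1 were again highest in their groups. Whether the difference of these markers exceeds that of the replication genes was not tested.

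Marker lists of other cell types were set beside the replication levels in each mouse. T lymphocyte markers had median deviations of -0.024, -0.41 and -0.29 in WT and 0.15, 0.59 and -0.095 in Pxmp2-/- mice, and B lymphocyte markers -0.038, -0.14 and -0.16 in WT and 0.13, 0.22 and 0.029 in Pxmp2-/- mice. For T lymphocyte markers WT 2 was the lowest control and Pxmp2-/- 2 the highest mutant, and for B lymphocyte markers WT 3 was the lowest control and Pxmp2-/- 2 the highest mutant. The summed intensity of the 8 T lymphocyte genes ranged from 481 to 638 in WT and from 593 to 1080 in Pxmp2-/- mice, and that of the 9 B lymphocyte genes from 2181 to 2535 and from 2624 to 3062. Macrophage markers were highest in Pxmp2-/- 1 at 0.34 and lay between -0.14 and 0.029 in the other mice. Their 10 genes summed to 8954 to 9972 in WT and 10562 to 13188 in Pxmp2-/- mice. The genes did not go one way, with 6 higher and 4 lower in Pxmp2-/- mice. Their differences ran from -0.40 for Mertk to 0.85 for Lyz2. The 4 mammary epithelial markers above the filter had deviations of 0.20, 0.041 and 0.0090 in WT and 0.032, -0.11 and 0.14 in Pxmp2-/- mice. All 12 summed to 695 to 765 in WT and 707 to 849 in Pxmp2-/- mice. Of the 4 above the filter, 2 were higher and 2 lower in Pxmp2-/- mice, from -0.56 for Trp63 to 1.01 for Cdh1. Medians of endothelial markers lay between 0.13 and 0.14 in WT and between -0.16 and -0.11 in Pxmp2-/- mice. These medians stood apart between the genotypes, and within each genotype WT 2 and Pxmp2-/- 1 were the highest. Of the endothelial genes 8 were lower in Pxmp2-/- mice and 2 higher, Vwf by 0.09 and Pecam1 by 0.05. Fibroblast markers lay at -0.025, 0.25 and 0.13 in WT and at -0.041, -0.0019 and -0.28 in Pxmp2-/- mice, with WT 2 the highest control. Of the fibroblast genes 9 were lower in Pxmp2-/- mice, and Thy1 was higher by 0.60. Skeletal muscle markers were above the filter for 2 of 8 genes, and all 8 summed to 816, 963 and 769 in WT and 1249, 838 and 964 in Pxmp2-/- mice, so WT 2 and Pxmp2-/- 1 were the highest of their groups. The sums of the white adipocyte, germinal centre B cell and erythroid lists had WT 2, WT 1 and WT 3 as the highest control, and each had Pxmp2-/- 2 as the highest mutant. A single gene made up most of the latter 2 sums. In Pxmp2-/- 2, Bcl6 read 1900 of a germinal centre sum of 2383, and Alas2 read 883 of an erythroid sum of 1094. The part of these cell types in the replication levels was not tested.

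**Figure D4:**
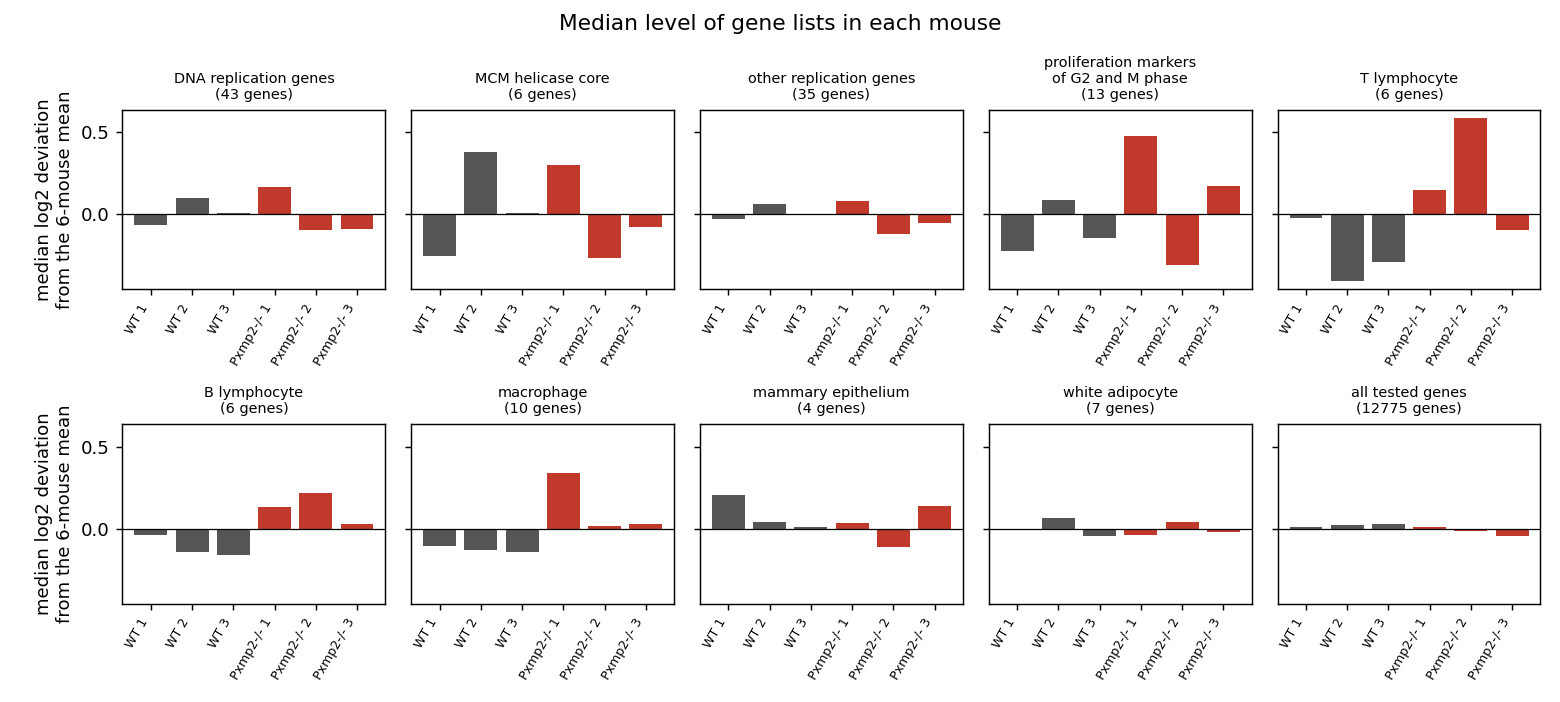
Median deviation from the mean of the 6 mice in log2(intensity + 16) (vertical axis) for 10 gene lists in each mouse (horizontal axis), with WT bars in grey and Pxmp2-/- bars in red. The panels of DNA replication, MCM and G2 and M phase genes share their highest mice, WT 2 and Pxmp2-/- 1 within each genotype, and the T lymphocyte panel has WT 2 lowest and Pxmp2-/- 2 highest.

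The genotype values of the replication genes rested on which mice were in the fit. Without WT 2 the median difference was 0.050 with 18 of 43 genes lower, and without Pxmp2-/- 1 it was -0.099 with 30 of 43 lower. Other mice moved it by similar amounts. Without WT 1 it was -0.087 with 29 of 43 lower, and without Pxmp2-/- 2 it was 0.066 with 17 of 43 lower. Without both WT 2 and Pxmp2-/- 1, an alternative chosen after seeing the data, the median difference was -0.058. In each of the 6 fits with a single array left out, limma called 0 replication probe sets after adjustment.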

How the data were processed

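RNA of mammary fat pads was labelled with biotin and hybridised by the standard Affymetrix protocol, per the labels' protocols. The authors deposited intensities on a linear scale for 45037 probe sets, with similar medians across arrays. No source used here names the summarisation or scaling. Per the labels each array is a separate mouse, and with 3 mice per genotype the small number of arrays bounds the precision. Intensities were transformed to log2(intensity + 16), and the 27022 probe sets with a mean above the 40th percentile were tested with limma 3.58.1 in R 4.3.3 (lmFit, eBayes, two-sided, all 6 arrays). Benjamini-Hochberg adjustment ran over all of them, with a threshold of 0.05. The script was tested on simulated data. Gene names came from the platform annotation (34945 probe sets with a single symbol, 932 with several, 9160 with none), looked up by Entrez number in the RefSeq table of GRCm38.p6, which changed 0 names. Promoters are RefSeq windows of GRCm38.p6.

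The members and all gene lists were chosen with earlier results of these data known, so counts over them are descriptions. Every member is named, and values per mouse are given for the 12 with the smallest p and for Mcm2 to Mcm7, Pcna, Cdc6, Cdt1, Gmnn, Rrm2 and E2f1. Of each pathway list the 4 genes with the smallest p are named. Uhrf1, and the mice WT 2 and Pxmp2-/- 1, were singled out after their values were seen. Plots were drawn with matplotlib 3.10.9. Alternatives were other scalings, pseudocounts, filters, variance models and probe set choices, the replicate number as a block and leaving out each array.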

Additional observations from a re-analysis of the deposited data

How the results depend on the processing

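In every alternative fit limma called 0 replication probe sets after adjustment, and the lowest adjusted p of any of the 21 genes given per mouse was 0.103. The count of all probe sets called, 17, was 1 with no level filter, 34 with a mean-variance trend and 26 with array weights. Leaving out single arrays gave 1 to 33, namely 6 without WT 1, 2 without WT 2, 33 without Pxmp2-/- 1 and 1 for WT 3, Pxmp2-/- 2 and Pxmp2-/- 3 each. With the replicate number as a replicate block it was 1. Same-numbered arrays correlated by 0.022, 0.044 and -0.12 in their deviations from group means, so the numbers were not taken to pair mice.

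The median difference of the replication genes ranged from -0.099 to 0.066 without single arrays, was 0.029 without probe sets ending in _x_at or _s_at, and 0.025 as a mean over the probe sets of a gene. Of the 21 genes 12 kept their sign in all alternatives. Sign changes after quantile normalization were Mcm6 (0.024) and Gmnn (0.036), with array weights Mcm4 (-0.075), and without _x_at and _s_at probe sets Mcm7 (0.033), Mcm3 (0.13) and Mcm5 (0.18). As a mean over probe sets Mcm5 was 0.063. Without single arrays Mcm2 ranged from -0.087 to 0.29, Mcm3 from -0.31 to 0.071, Mcm4 from -0.17 to 0.24, Mcm5 from -0.27 to 0.15 and Mcm6 from -0.21 to 0.16. Cdt1 ranged from -0.31 to 0.087, E2f1 from -0.43 to 0.089 and Gmnn from -0.18 to 0.11. The cause was not tested. In the median level per mouse, WT 2 and Pxmp2-/- 1 were the highest under quantile normalization (0.084 and 0.17), median centring (0.12 and 0.14) and averaged probe sets (0.12 and 0.14).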

Other observations

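Among the 23 probe sets of the replication genes below the level filter, which were not tested, 3 (13.0%) had groups that did not overlap, a share near the 11.8% of all 18015 probe sets below the filter. A probe set of E2f1 read 64.8, 62.5 and 66.9 in WT and 50.8, 31.0 and 43.3 in Pxmp2-/- mice, where the tested probe sets of E2f1 overlapped. A probe set of Rrm1 read 35.3, 38.3 and 45.8 in WT and 11.7, 24.0 and 23.4 in Pxmp2-/- mice, where the tested probe sets of Rrm1 differed by -0.10 and 0.33 log2. A probe set of Mcm2 went the other way, with 34.5, 48.3 and 46.6 in WT and 60.6, 53.7 and 53.8 in Pxmp2-/- mice, where the tested probe set overlapped. These 3 were picked after their values were seen.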
